A study of Mus musculus with 24 samples.

Results

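The nuclear genes of the mitochondrial respiratory chain were followed through all 8 groups of a progesterone experiment in the mouse uterus. Members were the probe sets whose platform annotation named 1 gene only, with a symbol of the families Nduf (letters a, b, c, s and v), Sdha to Sdhd, Uqcr, Cox4 to Cox8 or Atp5, or with the symbol Cycs. There were 99 such probe sets for 72 genes, of 12422 probe sets on the array, of which 10833 named 1 gene, for 8251 genes in all. Complex I had 42 probe sets for 31 genes, complex II 4 for 4, complex III 7 for 7, complex IV 23 for 15, complex V 22 for 14, and cytochrome c 1. The rule also took Ndufaf1 and Ndufaf4, which help to assemble complex I and are no subunits, with 4 probe sets, so 95 probe sets for 70 genes stood for subunits and cytochrome c. Another 10 probe sets, among them the only ones for Ndufb4, Ndufs6, Ndufa11, Ndufs5 and Cox7c, named further loci as well and were left out.

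All mice were ovariectomized at 6 weeks of age, which removes the main source of progesterone and oestrogen, and were treated 2 weeks later. Wild-type mice and mice without the progesterone receptor (PRKO) received 1 mg of progesterone (P4) in sesame oil, or the oil alone (vehicle). The 4 h groups had 1 injection, and the 40 h groups had 4 injections at intervals of 12 h, with the uteri taken 4 h after the last. Each of the 8 groups had 3 arrays, and the RNA pooled for a genotype and treatment came from 5 mice. No label used here says whether each array had a pool of its own, so p-values measure the spread between these arrays, which may be technical. RNA came from whole uterus, where fewer cells of a type and less RNA per cell cannot be told apart. The uterine genes Esr1, Hoxa10 and Hoxa11 and the smooth muscle genes of the uterine wall were among the measured markers, and Acta2, Myh11 and Tagln had mean signals in the top percentile of the array. Pgr, the gene inactivated in PRKO mice, gave a signal of 102.8 to 169 on the wild-type arrays and 110.2 to 139 on the PRKO arrays. These ranges overlapped, and the labels do not place this probe set relative to the deleted part, so it does not check the genotype labels.

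The respiratory chain is a set of 4 protein complexes in the inner mitochondrial membrane that pass electrons from NADH and succinate to oxygen, with ubiquinone and cytochrome c as mobile carriers. Complexes I, III and IV pump protons across the membrane, and complex V, the ATP synthase, uses the return of these protons to make ATP. Most subunits are encoded in the nucleus, and the transcription factors NRF1 and GABP (also called NRF2) are known for binding the promoters of many of them. In the uterus, progesterone acts through its receptor on stroma, epithelium and muscle to prepare for implantation.

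Promoter sequence is shown for the 2 members that rose in any comparison, Ndufb6 and Ndufa3. Of the 72 member genes, 59 had a promoter in the RefSeq table (mouse build GRCm38.p6, 250 bases before to 50 bases after the transcript start). The stretch of Ndufb6, a subunit of the membrane arm of complex I, lay upstream of the gene at chr4:40279422-40279671 on the minus strand. Its capitals mark the GABP letters CCGGAAG, which here read on the other strand.
Ndufb6: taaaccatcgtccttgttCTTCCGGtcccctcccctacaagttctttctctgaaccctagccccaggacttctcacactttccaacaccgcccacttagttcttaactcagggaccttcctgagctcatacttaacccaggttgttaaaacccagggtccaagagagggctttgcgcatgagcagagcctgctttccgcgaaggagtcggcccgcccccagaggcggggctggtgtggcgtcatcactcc
The stretch of Ndufa3, a small accessory subunit of the membrane arm, lay upstream of the gene at chr7:3617123-3617346 on the plus strand. Its capitals mark the letters TATAAA.
Ndufa3: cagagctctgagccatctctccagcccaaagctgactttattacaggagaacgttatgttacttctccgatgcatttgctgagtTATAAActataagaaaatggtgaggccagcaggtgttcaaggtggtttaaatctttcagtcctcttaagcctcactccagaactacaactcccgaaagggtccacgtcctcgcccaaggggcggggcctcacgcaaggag

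Motif letters were counted in the whole 300-base windows on both strands. The NRF1 palindrome, the run in capitals in the windows printed next, reads the same on both strands and occurred in 5 of the 59 member promoters (8.5%) and in 1.1% of the promoters of 27025 genes. The 5 sites are shown as windows of 30 bases with the motif in capitals, since NRF1 is a known regulator of these genes.
Cox6a1: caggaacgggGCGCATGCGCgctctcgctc
Uqcrc1: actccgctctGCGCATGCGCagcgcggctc
Atp5g2: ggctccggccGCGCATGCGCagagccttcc
Atp5k: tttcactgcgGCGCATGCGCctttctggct
Ndufaf4: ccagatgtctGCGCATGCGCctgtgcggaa
They lay at chr5:115349101-115349130 on the minus strand for Cox6a1, chr9:108936668-108936697 on the plus strand for Uqcrc1, chr15:102671070-102671099 on the minus strand for Atp5g2, chr5:108434430-108434459 on the minus strand for Atp5k and chr4:24897960-24897989 on the plus strand for Ndufaf4. The GABP letters CCGGAAG occurred in 16 member promoters (27.1%) against 9.9% of all promoters. The 16 genes were Ndufb6, Ndufb7, Ndufs3, Ndufaf1, Sdhb, Sdhd, Uqcr11, Uqcrh, Cox6a1, Cox6b1, Cox8a, Atp5e, Atp5j, Atp5k, Atp5l and Atp5md. The CCAAT letters were found in 25 member promoters (42.4%) against 41.1% of all, and the TATAAA letters in 6 (10.2%) against 15.7%. The progesterone response element, searched as the letters GNACA and TGTNC with 3 bases between them, was found in 0 of the 59 windows, against 0.5% of all promoters. A match is a string of letters and no measured binding, and a window without one says only that these letters are not in it.

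In wild-type uteri at 40 h, P4 left most subunit probe sets slightly higher than vehicle, and 2 of the 99 members rose while none fell. The 2 were Ndufb6, 1.41-fold higher, and Ndufa3, 1.33-fold higher, both of complex I. Over all 12422 probe sets 0.716% rose and 0.821% fell, 1.54% in all (limma, adjusted p under 0.05), so the share of members called was close to the background. Without adjustment, 20 members had a higher and 0 a lower level at p under 0.05, against 5.5% and 6.21% of all probe sets. The median log2 change of the members was 0.11, beside 0.001 over all probe sets, and 79 of the 99 changes lay above 0 (79.8%, against 50.2% of all). In 24 members all 3 P4 arrays lay above all 3 vehicle arrays and in 0 all lay below, and over the array these patterns held for 9.76% and 10% of probe sets. These counts describe the members and are no test of the group.

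The signal of Ndufb6 on its brighter probe set was 980.4, 822.5 and 989.3 on the wild-type vehicle arrays at 40 h and 1352, 1400 and 1215 on the P4 arrays. The lowest P4 array lay well above the highest vehicle array. The log2 change was 0.49 ± 0.098 (SE, n = 3 against 3; limma adjusted p = 0.00903). At 4 h, Ndufb6 read 1151, 1134 and 1247 with vehicle and 1225, 1161 and 1063 with P4, and the groups overlapped. In PRKO uteri at 40 h it read 1011, 921.2 and 852.1 with vehicle and 1171, 1085 and 995.7 with P4, again with overlap, a change of 0.22 ± 0.098 (limma adjusted p = 0.703). The call for wild-type uteri was lost without vehicle replicate 2 (0.41, limma adjusted p = 0.0717) and without P4 replicate 2 (0.45, limma adjusted p = 0.0647). The gene's other probe set had a mean signal of 37.5, near the low end of the array, and a change of -0.095 ± 0.218.

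Ndufa3 on its brighter probe set read 1675, 1493 and 1577 on the wild-type vehicle arrays at 40 h and 2302, 1918 and 2128 on the P4 arrays, with no overlap. The change was 0.41 ± 0.097 (SE, n = 3 against 3; limma adjusted p = 0.0312). Its dimmer probe set read 239.4, 226.6 and 245.7 with vehicle and 357, 283.9 and 259.7 with P4, also with no overlap, but did not pass (0.29 ± 0.090, limma adjusted p = 0.126). Both carry the suffix f, which marks probes that also match related sequences, so another transcript could add to either signal; 30 of the 99 members have an f or r suffix. In PRKO uteri at 40 h, the brighter Ndufa3 probe set read 1714, 1657 and 1725 with vehicle and 1929, 1975 and 1684 with P4. The change there was 0.13 ± 0.097 (limma adjusted p = 0.724), and the dimmer one differed by 0.006 ± 0.090. The wild-type call was lost without vehicle replicate 2 or 3 or P4 replicate 1 or 3, with adjusted p up to 0.17, and without scaling of the arrays (0.40, limma adjusted p = 0.0662).

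**Figure D1:**
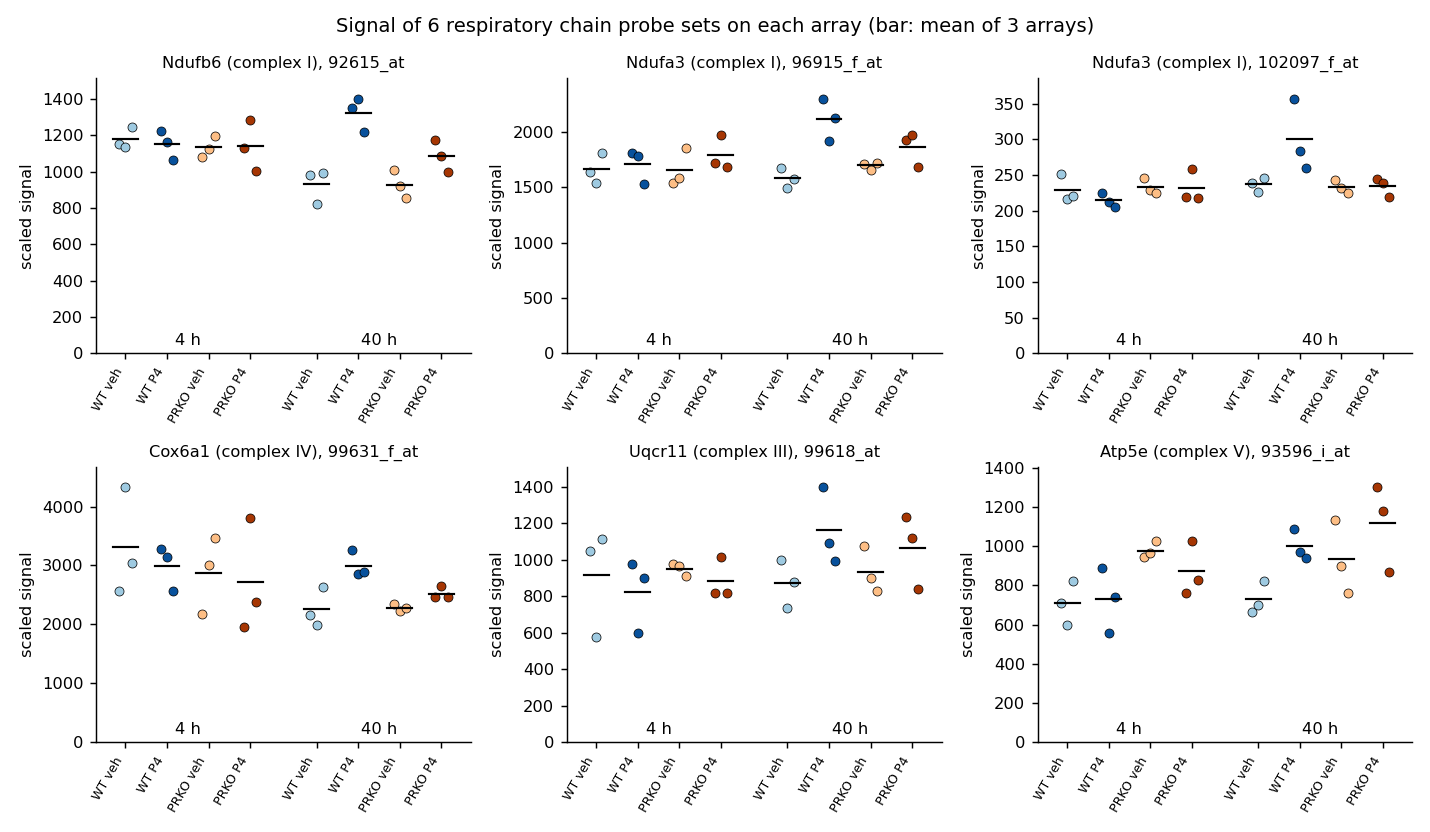
Scaled signal (linear axis from 0) of 6 probe sets on each of the 24 arrays, grouped by genotype, treatment and time; points are arrays and bars are the means of 3. Ndufb6 and both Ndufa3 probe sets have their highest wild-type values in the 40 h P4 group, where Ndufb6 lies at 1215 to 1400 against 822.5 to 989.3 with vehicle, while Cox6a1, Uqcr11 and Atp5e spread more widely within groups, and none of these 3 passed.

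The other subunits of complex I were mostly higher with P4 without passing. Over the 38 subunit probe sets of this complex, which takes electrons from NADH, the median was 0.16, and 31 lay above 0. Of the core subunits, some of which hold the flavin and iron-sulphur clusters, Ndufv1, Ndufv2, Ndufs1 and Ndufs3 were measured. Their median was 0.082 over 5 probe sets, and that of the accessory subunits, which stabilise the complex, 0.17 over 33. The order was reversed in PRKO uteri at 40 h (0.125 and 0.10) and in wild-type uteri at 4 h (0.052 and -0.042). Within the core, in wild-type uteri at 40 h, Ndufv2 differed by 0.30 ± 0.099 and 0.21 ± 0.145 on its 2 probe sets. Ndufs1, Ndufv1 and Ndufs3 differed by 0.082, 0.019 and -0.005. Among the accessory subunits, Ndufb2 was measured by 4 probe sets with changes of 0.37, 0.24, 0.14 and -0.020, of which the last 2 had mean signals of 65.1 and 53.9. The highest of these, on a probe set with suffix f, went with signals of 1146, 1125 and 1184 in vehicle and 1534, 1419 and 1533 in P4 uteri. Those arrays did not overlap, yet the adjusted p was 0.175 (limma). Ndufv3 (0.33), Ndufc1 (0.26), Ndufb9 (0.23) and Ndufa9 (0.23) were the next highest genes besides Ndufb8 (0.24), whose SE was 0.219. Ndufa8, Ndufa1 and Ndufc2 lay between -0.030 and -0.001. The assembly factors Ndufaf1 and Ndufaf4 had a median of 0.023 over 4 probe sets.

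Complex II, succinate dehydrogenase, also works in the tricarboxylic acid cycle, and each of its 4 genes had 1 probe set. Sdhd, a membrane anchor, read 1584, 1316 and 1440 with vehicle and 1856, 1585 and 1696 with P4 in wild-type uteri at 40 h. The lowest P4 array lay just above the highest vehicle array, and the change of 0.24 ± 0.089 did not pass (limma adjusted p = 0.233). The iron-sulphur subunit Sdhb differed by 0.135 ± 0.114, the other anchor Sdhc by 0.058 ± 0.114 and the flavoprotein Sdha by 0.004 ± 0.198, all with overlapping arrays. The median of the 4 was 0.097.

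Complex III passes electrons from ubiquinol to cytochrome c, and all 7 of its probe sets lay above 0 at 40 h in wild-type uteri, with a median of 0.20. Uqcr11, a small subunit, was the highest at 0.40 ± 0.207 (limma adjusted p = 0.479). It read 999.1, 736.2 and 880.9 with vehicle and 1397, 1094 and 994 with P4, so 1 P4 array fell just below the highest vehicle array. Uqcrb, which helps to bind ubiquinone, differed by 0.29 ± 0.133 and read 554.5, 599 and 601.9 with vehicle and 791, 807.5 and 587.1 with P4. The core proteins Uqcrc2 and Uqcrc1 differed by 0.22 ± 0.157 and 0.11 ± 0.145, the latter the lowest of the complex. Cycs, the electron carrier between complexes III and IV, differed by -0.050 ± 0.138 with overlapping arrays, at a mean signal of 208.4.

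Complex IV reduces oxygen to water, and its nuclear subunits surround the mitochondrially encoded core, which was not analysed here. The median over its 23 probe sets was 0.095, with 17 above 0. Cox6a1 was the highest at 0.41 ± 0.201 (limma adjusted p = 0.445), with 2166, 1995 and 2640 in vehicle and 3262, 2849 and 2887 in P4 uteri. The 40 h arrays of Cox6a1 did not overlap, and its 4 h arrays were much more spread, from 2560 to 4326 with vehicle. Cox7b read 1221, 1241 and 1343 with vehicle and 1827, 1658 and 1530 with P4, a change of 0.39 ± 0.142 that did not pass (limma adjusted p = 0.226). Cox6c on its brightest probe set read 4698, 4109 and 4137 with vehicle and 5331, 4897 and 5174 with P4. Its change of 0.25 ± 0.074 came closest to passing within the complex (limma adjusted p = 0.104), while its other probe sets differed by 0.040 and 0.010. The lowest member was Cox8b, at -0.14 ± 0.080 and -0.10 ± 0.084 on its 2 probe sets.

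Complex V had a median of 0.086 over 22 probe sets, 17 of them above 0. The catalytic F1 part (Atp5a1, Atp5c1, Atp5d and Atp5e were measured) had a median of 0.043 over 9 probe sets, and the membrane and stalk parts 0.12 over 13. Atp5e, the smallest F1 subunit, was the highest at 0.44 ± 0.169 (limma adjusted p = 0.256). It read 666.1, 701.8 and 823.3 with vehicle and 1090, 972.2 and 941.2 with P4, with no overlap. Atp5md, a small subunit of the membrane part, read 2006, 1922 and 2078 with vehicle and 2624, 2399 and 2610 with P4 (0.34 ± 0.123, limma adjusted p = 0.214), and Atp5mpl, of the same part, differed by 0.34 ± 0.136. Atp5a1, one of the main F1 subunits, differed by -0.041 ± 0.087. The 5 probe sets of Atp5d ranged from -0.085 to 0.20.

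**Figure D2:**
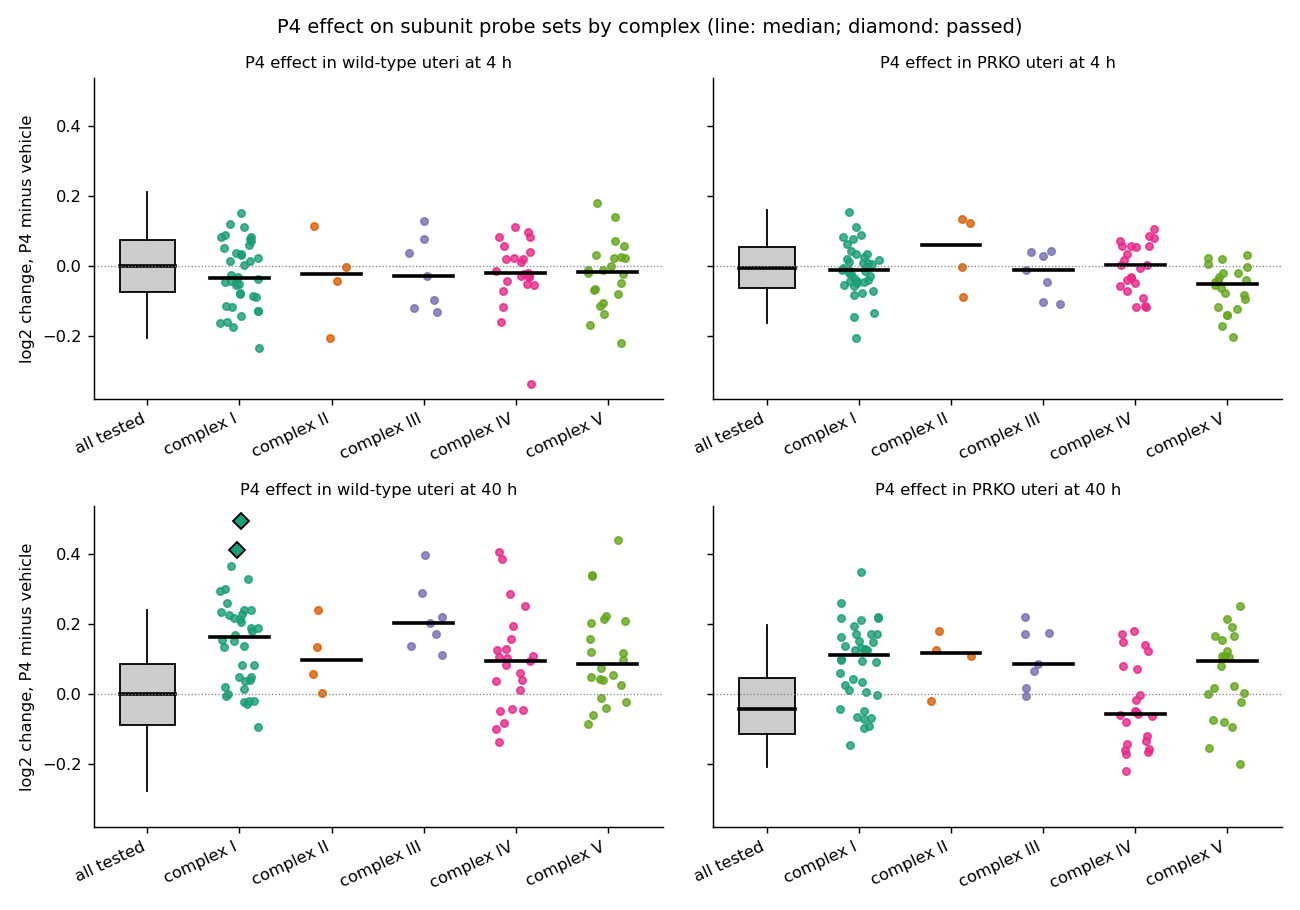
Log2 change, P4 minus vehicle, of each subunit probe set by complex in the 4 groups of genotype and time; points are probe sets, lines are medians, diamonds passed, and the grey box holds the middle of all tested probe sets with its 5th and 95th percentiles as whiskers. At 40 h in wild-type uteri all 5 complex medians lie above 0, from 0.086 to 0.20, with Ndufb6 and Ndufa3 as the diamonds. In PRKO uteri at 40 h complex IV alone has a median below 0, at -0.058, beside -0.042 over all tested probe sets.

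Several probe sets of a gene did not always show the same change. Of the 20 member genes with more than 1 probe set, 13 had the same sign on all of them in wild-type uteri at 40 h. Taking the probe set of highest mean signal for each gene, 62 of the 72 members lay above 0 (86.1%, with a median of 0.145), against 49.9% of all genes. The change also went with brightness. The 57 members with a mean signal of 500 or more had a median of 0.19, and 52 of them lay above 0 (91.2%, against 50.1% of 4505 bright probe sets overall), whereas the 42 dimmer ones had a median of 0.038 with 27 above 0. An offset of 32 was added before the logarithm, which compresses dim changes, and with an offset of 16 the median over all members was 0.115. The part of the offset in the difference between bright and dim members was not tested.

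**Figure D3:**
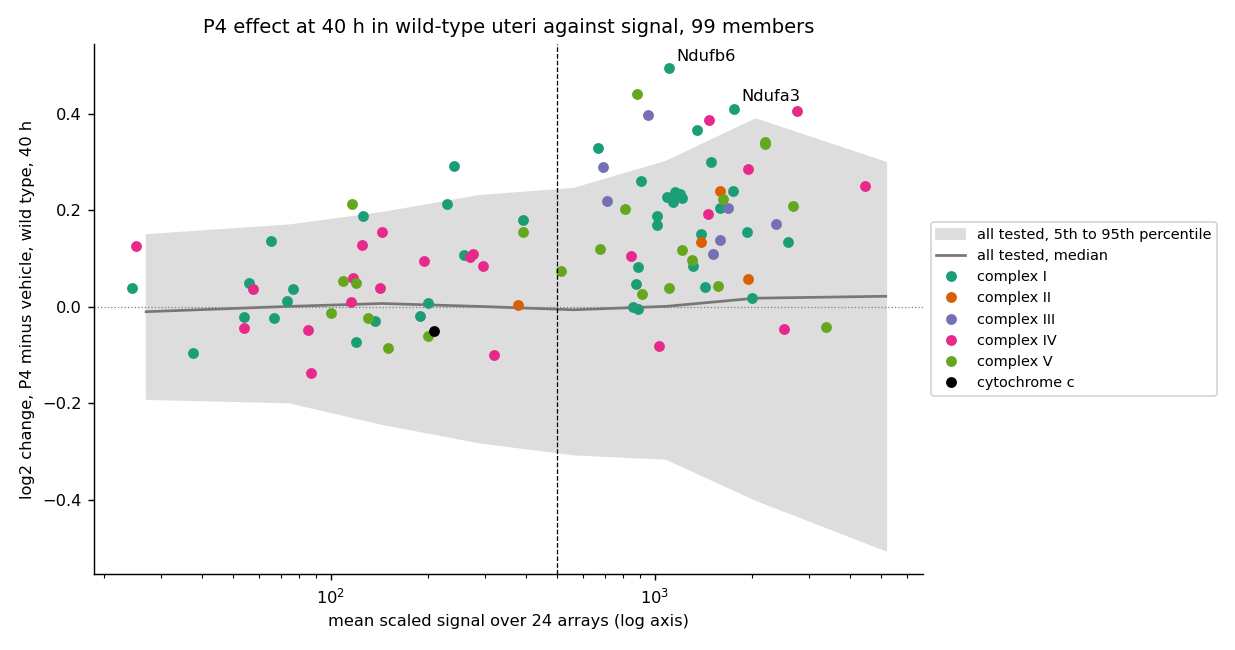
Log2 change in wild-type uteri at 40 h (vertical axis) against the mean scaled signal over 24 arrays (log axis) for the 99 members, coloured by complex, with the 5th to 95th percentile and median of all tested probe sets in grey. To the right of the dashed line at 500, 52 of 57 members lie above 0; to its left the members scatter around a median of 0.038.

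In PRKO uteri at 40 h no member passed, and no probe set of the array did (0% called by limma at an adjusted p under 0.05). Without adjustment 4 members had a higher and 2 a lower level, against 1.9% and 4.79% of all probe sets. The member median was 0.087, beside -0.042 over all probe sets, and the medians were 0.11 in complex I, 0.12 in complex II, 0.087 in complex III, -0.058 in complex IV and 0.094 in complex V. In 19 members all 3 P4 arrays lay above all 3 vehicle arrays and in 8 all lay below, against 5.88% and 16.4% of all probe sets. Of the 24 members with no overlap in the upward direction in wild-type uteri, 8 also had none in PRKO uteri. That is 33.3% of the 24 and 42.1% of the 19 members with no upward overlap in PRKO uteri. Over the array 178 probe sets (1.43%) had this pattern in both genotypes, which is 14.7% of those in wild-type and 24.4% of those in PRKO uteri. The bright members had a median of 0.13 with 51 of 57 above 0 (89.5%, against 51.8% of bright probe sets overall), and the dim members -0.062, close to the -0.067 of all dim probe sets. Ndufc1, an accessory subunit of complex I, was the highest PRKO change at 0.35 ± 0.108 (limma adjusted p = 0.703), with 853.1, 832.6 and 730.2 in vehicle and 1078, 1074 and 950 in P4 uteri. In wild-type uteri Ndufc1 read 919.5, 796.2 and 881.7 with vehicle and 1084, 1003 and 1040 with P4, so its P4 arrays did not overlap the vehicle arrays in either genotype. In complex IV, 5 of the 23 probe sets had all 3 P4 arrays below all 3 vehicle arrays, namely both of Cox8b (-0.22 and -0.063), the dimmer one of Cox5a (-0.17), Cox6b1 (-0.165) and the dimmer one of Cox4i1 (-0.058). Another 5 had all 3 above, namely Cox7a2 (0.18), the Cox6b2 probe set with suffix i (0.17), the brightest one of Cox6c (0.15), Cox6a1 (0.14) and Cox5b (0.12). The 5 lower probe sets were dim, with mean signals of 57.6 to 319.5, and all dim probe sets had a median of -0.067. Of the 5 higher ones, Cox6b2 had a mean signal of 268.8 and the rest 1457 to 4463.

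No member passed the test of the difference between genotypes, which compares the PRKO effect of P4 at 40 h with the wild-type effect. Over the array 0.105% did (limma, adjusted p under 0.05), and without adjustment 2 members were lower and 0 higher, against 6.2% and 2.9% of all. The P4 change was smaller in PRKO than in wild-type uteri for 70 of the 99 members (70.7%) and for 57.9% of all probe sets, with a median difference of -0.099 beside -0.035 over all probe sets. The difference was -0.28 ± 0.139 for Ndufb6 (limma adjusted p = 0.555), -0.28 ± 0.137 and -0.29 ± 0.127 for the Ndufa3 probe sets (limma adjusted p = 0.548 and 0.541), and -0.31 ± 0.200 for Cox7b (limma adjusted p = 0.67). The interval of about 2 SE around each of the 3 complex I values reaches from close to 0 to beyond the wild-type change itself, so neither an equal response nor a missing one was resolved. By complex the median difference ran from -0.14 in complex III to 0.021 in complex II.

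**Figure D4:**
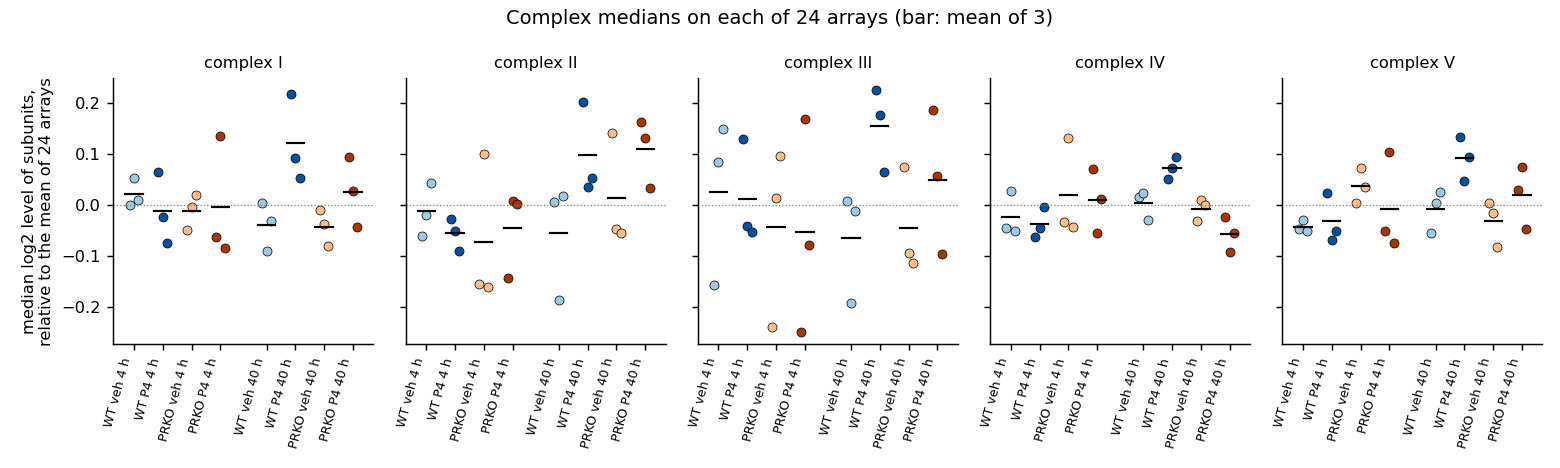
Median log2 level of the subunit probe sets of each complex on every array, relative to each probe set's mean over the 24 arrays; points are arrays and bars are the means of 3. On the wild-type P4 arrays at 40 h the median over all subunits was 0.185, 0.073 and 0.066, above the -0.056 to 0.007 of the vehicle arrays, and the PRKO P4 arrays ranged from -0.052 to 0.057.

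At 4 h, after a single injection, no member passed in wild-type uteri, where 0.708% of all probe sets did (limma, adjusted p under 0.05). Without adjustment 0 members were higher and 1 was lower, against 3.73% and 2.5% of all. The member median was -0.023, beside 0.001 over all probe sets, with 42 of 99 above 0. The lowest change was that of Cox6b2, a subunit form of complex IV known from testis, on a probe set with suffix i, an incomplete probe set, at -0.34 ± 0.107 (limma adjusted p = 0.303). It read 273.3, 257.9 and 306.5 with vehicle and 210.7, 181.1 and 255.4 with P4. All 3 P4 arrays lay below the vehicle arrays, but the other 2 probe sets of Cox6b2 differed by 0.083 and 0.024. It passed without P4 replicate 3 (-0.45, limma adjusted p = 0.0491). Atp5j2, of the membrane part of the ATP synthase, was the lowest of complex V at -0.22 ± 0.129 and read 153, 86.3 and 157.6 with vehicle and 100.9, 92.8 and 126.7 with P4. It passed without vehicle replicate 2 (-0.44, limma adjusted p = 0.0429), the array on which it was lowest. That array and P4 replicate 2 had Gapdh ratios of 3.67 and 3.25 (signal of the 3' over that of the 5' control probe set, which rises where RNA or cDNA is shortened), against 1.23 to 1.86 on the other 22 arrays. The same ratio for actin did not set these arrays apart. It was 1.42 and 1.3 on them, within the 1.11 to 1.96 of all arrays. The highest and lowest of the remaining complexes were Ndufv3 (0.15) and the dimmer Ndufb6 probe set (-0.23) in complex I, Sdhb (0.12) and Sdha (-0.20) in complex II, Uqcrc1 (0.13) and Uqcrb (-0.13) in complex III, the dimmer Cox8c probe set (0.11) in complex IV and the brighter Atp5g1 probe set (0.18) in complex V. In PRKO uteri at 4 h no member and no probe set of the array passed (0% by limma), 0 members had an unadjusted p under 0.05 (0.789% of all were higher and 1.11% lower), and the member median was -0.018. The difference between genotypes at 4 h called no member (0.0966% of all, limma, with 0 members at an unadjusted p under 0.05, against 0.918% of all higher and 2.58% lower) and had a member median of 0.009.

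The difference between the times, the wild-type effect at 40 h minus that at 4 h, passed for no member and for 0.475% of all probe sets (limma, adjusted p under 0.05). Without adjustment 13 members were higher and 0 lower, against 2.95% and 3.44% of all. Its member median was 0.13, beside -0.005 over all probe sets, with 82 of 99 above 0. Ndufb6 had the smallest p, with a difference of 0.53 ± 0.139 (limma adjusted p = 0.113). Atp5j2 passed it without wild-type vehicle replicate 2 of 4 h (0.65, limma adjusted p = 0.0222).

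The vehicle arrays at 40 h enter both the P4 effect at 40 h and the comparison of times in vehicle uteri, so the 2 comparisons are not independent. In wild-type vehicle uteri no member passed between 40 h and 4 h (0.29% of all probe sets, limma), and without adjustment 8 were higher and 10 lower (10.2% and 5.07% of all), with a median of -0.002 beside 0.035. The lowest were Cox6a1 (-0.515 ± 0.201, limma adjusted p = 0.225), Cycs (-0.50 ± 0.138, limma adjusted p = 0.0913), Uqcrb (-0.42 ± 0.133, limma adjusted p = 0.141), Ndufa5 (-0.39 ± 0.123, limma adjusted p = 0.134), Ndufb6 (-0.33 ± 0.098, limma adjusted p = 0.115) and Ndufb3 (-0.32 ± 0.087, limma adjusted p = 0.0912). Cycs read 242.1, 203.3 and 314.7 at 4 h and 170.2, 145.2 and 188.2 at 40 h, with no overlap. It passed without vehicle replicate 2 of 4 h (-0.63, limma adjusted p = 0.0484), as did Atp5j2 (-0.45, limma adjusted p = 0.0446). Ndufa5, a subunit of the peripheral arm of complex I, read 1616, 1680 and 1445 at 4 h and 1241, 1146 and 1193 at 40 h. In PRKO vehicle uteri, which share no array with the wild type, no member passed either (0% of all, limma), 1 was higher and 7 lower without adjustment (6.17% and 4.9% of all), and the median was -0.040. Ndufa5 differed by -0.37, Cox6a1 by -0.31, Ndufb3 by -0.300, Ndufb6 by -0.28, Uqcrb by -0.27 and Cycs by -0.081. Ndufa5 read 1622, 1537 and 1586 at 4 h and 1350, 1128 and 1177 at 40 h in PRKO uteri, and the groups did not overlap in either genotype. For Ndufb6 the wild-type P4 mean at 40 h was 1322 ± 96.3 (SD, n = 3), beside vehicle means of 930.7 ± 93.8 at 40 h and 1177 ± 61 at 4 h. The 4 h and 40 h groups differ in the number of oil injections as well as in time, and these cannot be told apart.

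Loss of the receptor alone left the members without a called difference. Between PRKO and wild-type vehicle uteri no member passed at 4 h (0.185% of all probe sets, limma) or at 40 h (0.0644%), and the medians were 0.001 and -0.002. Without adjustment 2 members were higher and 2 lower at 4 h, against 3.15% and 1.88% of all, and 1 was higher and 0 lower at 40 h, against 1.31% and 1.76%. Atp5e read 712.3, 595.5 and 823.2 in wild-type and 942.6, 964 and 1026 in PRKO vehicle uteri at 4 h, with no overlap (0.45 ± 0.169, limma adjusted p = 0.732). At 40 h its PRKO vehicle arrays, at 1135, 898.8 and 763.4, overlapped the wild type (0.33). Cox7a2l, a protein related to Cox7a that takes part in joining complexes III and IV, read 2237, 2111 and 2429 in wild-type and 2643, 2705 and 2568 in PRKO vehicle uteri at 4 h (0.22 ± 0.068, limma adjusted p = 0.413). At 40 h the difference for Cox7a2l was 0.030. Sdhd was the 1 member higher at 40 h, by 0.22 ± 0.089 (limma adjusted p = 1).

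Several complex IV subunits exist as forms of different tissues, and the c subunit of complex V is encoded by several genes. Each form or gene is described only against itself, since probe sets do not compare levels between genes. Cox6a1, the common form, differed by 0.41 in wild-type uteri at 40 h, and Cox6a2, the heart and muscle form, by 0.059 at a mean signal of 117. Of the Cox7a forms, the common Cox7a2 differed by 0.19 and the heart and muscle form Cox7a1 by 0.13 at a mean signal of 25.02, which is near the floor of the array. Cox8a differed by 0.16, and the muscle and brown fat form Cox8b had the lowest changes of the complex. Cox6b1 differed by 0.084, and the 3 Cox6b2 probe sets by 0.13, 0.105 and 0.104. The Cox4i1 probe sets differed by 0.11 and 0.095. Of the genes for the c subunit ring of the ATP synthase, Atp5g1 differed by 0.074 and -0.060 and Atp5g2 by 0.039 and -0.012. No form passed in any of the 11 comparisons, and Cox4i2, Atp5g3, Ndufa4 and Ndufa4l2 were not analysed here.

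The promoter letters described above were set beside the wild-type changes at 40 h, with 1 probe set per gene and no test. The 16 genes with the GABP letters had a median change of 0.19, from -0.005 to 0.495, and the 43 without them 0.13. The 5 genes with the NRF1 letters ranged from 0.007 to 0.41 with a median of 0.11, and the 54 without them had a median of 0.16. Neither set of letters divided the members into higher and lower ones.

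Other genes of the chain were given by a list of 48 genes, of which 16 were measured on 19 probe sets. In wild-type uteri at 40 h, 2 probe sets rose, 0 fell, and the median was 0.031. Acad9, an acyl-CoA dehydrogenase relative that helps to assemble complex I, read 370, 331.2 and 320.9 with vehicle and 462.2, 449.9 and 477.3 with P4 (0.41 ± 0.067, limma adjusted p = 0.0015). In PRKO uteri Acad9 read 407.8, 392.4 and 409.3 with vehicle and 404.1, 408.9 and 406.8 with P4, a change of 0.012, and the genotype difference of -0.40 did not pass (limma adjusted p = 0.141). Cyc1, the cytochrome c1 of complex III, was higher by 0.43 ± 0.1 on a probe set with suffix r (limma adjusted p = 0.0262) and by 0.10 ± 0.137 on the other (limma adjusted p = 0.847), so its probe sets did not give the same call. Cox17, a copper chaperone for complex IV, differed by 0.39 ± 0.122 (limma adjusted p = 0.136), and Surf1, which also serves the assembly of complex IV, by -0.24 ± 0.101 (limma adjusted p = 0.317).

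Of the other mitochondrial groups, none had a called probe set among the P4 comparisons. The mitochondrial ribosomal proteins, 61 genes on 76 probe sets, had a median of 0.095 in wild-type uteri at 40 h with 64 above 0, and 0.051 in PRKO uteri. Carriers, pores and import proteins (23 of 25 genes measured) had medians of 0.105 and 0.059, and the tricarboxylic acid cycle with pyruvate dehydrogenase (16 of 18) 0.025 and 0.10. Mitochondrial fatty acid oxidation (13 of 15) had -0.032 and -0.045, and the regulators of mitochondrial biogenesis, such as Nrf1, Gabpa and Tfam (11 of 15), -0.049 and -0.054. Outside the mitochondrion, glycolysis (13 of 15) had -0.037 and 0.017. Cytosolic ribosomal proteins, another group of short abundant transcripts, had 0.052 and -0.051 over 41 probe sets, of which Rpl13a rose in wild-type uteri at 40 h (0.56 ± 0.08, limma adjusted p = 0.00048).

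**Figure D5:**
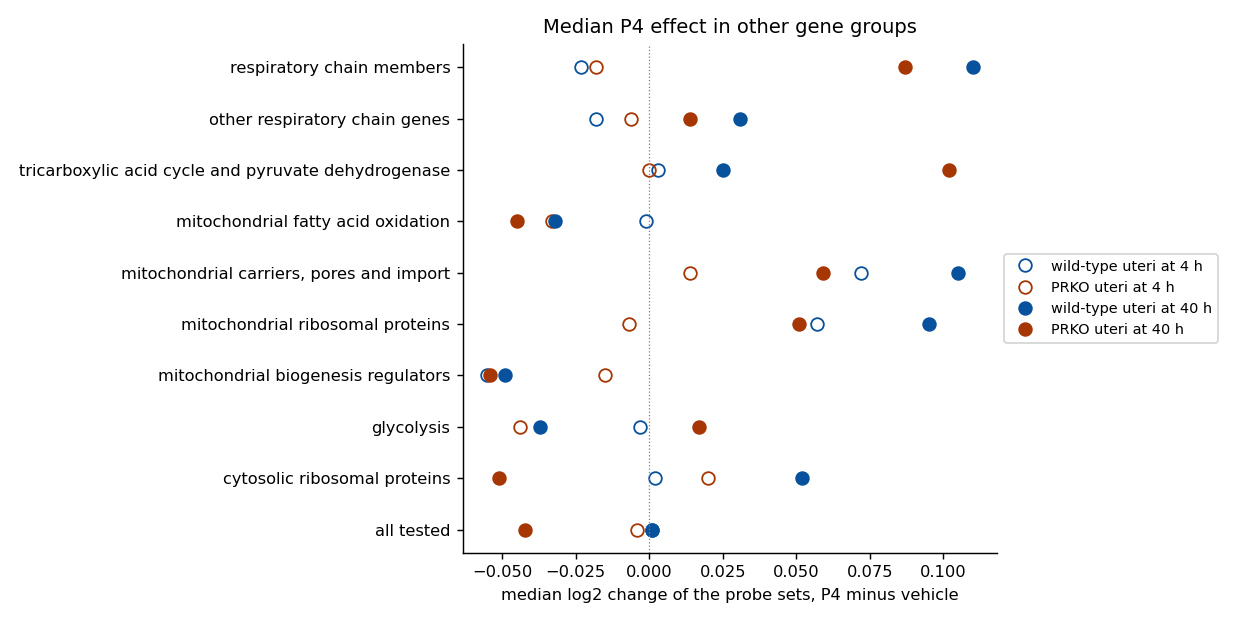
Median log2 change, P4 minus vehicle, of the respiratory chain members, 8 other gene groups and all tested probe sets (rows) in wild-type (blue) and PRKO (brown) uteri at 4 h (open) and 40 h (filled). Filled blue points lie furthest to the right for the respiratory chain (0.11), the carriers and import proteins (0.105) and the mitochondrial ribosomal proteins (0.095), while fatty acid oxidation, biogenesis regulators and glycolysis lie left of 0.

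Markers of other tissue moved with the same comparison. Of 10 adipose probe sets, 6 fell in wild-type uteri at 40 h, with a median of -1.17; their mean log2 level was 8.88 to 9.69 on the P4 arrays and 10.19 to 10.43 on the vehicle arrays. In PRKO uteri at 40 h the adipose median was -0.25, with levels of 10.07 to 10.27 with P4 and 10.26 to 10.5 with vehicle. Of 16 stroma probe sets 4 rose in wild-type uteri at 40 h (median 0.39), and of 10 smooth muscle probe sets 0 rose (median 0.26). The smooth muscle level there was 11.38 to 11.48 with P4 and 11.16 to 11.24 with vehicle. In PRKO uteri at 40 h it was 11.17 to 11.28 with P4 and 11.14 to 11.15 with vehicle. The stroma level was 10.35 to 10.58 against 9.94 to 10.25 in wild-type uteri, and 10.16 to 10.29 against 10.05 to 10.1 in PRKO uteri. The brown fat markers Ucp1 and Cidea differed by -0.23 to 0.08 in wild-type uteri at 40 h, at mean signals of 106.8 to 219.7. Of 14 epithelial probe sets 2 fell (Krt7 and Tspan8), as did 1 of 13 leukocyte probe sets (Cd74) and 1 of 5 endothelial ones (Cldn5). Others went the other way without passing, such as Cldn3 (0.34 and 0.32), Csf1r (0.26 and 0.22) and Cdh5 (0.22). In PRKO uteri at 40 h the epithelial level was 8.89 to 9 with P4 and 8.81 to 8.93 with vehicle. The endothelial level was 9.31 to 9.44 and 9.38 to 9.46. In wild-type uteri at 40 h the epithelial level was 8.85 to 8.97 with P4 and 9.05 to 9.1 with vehicle. The endothelial level there was 9.17 to 9.41 and 9.44 to 9.47, and the leukocyte levels overlapped. Of 23 skeletal muscle probe sets 1, for Acta1, rose (1.52); the median of the list was 0.054 with 14 above 0, and its mean log2 level was 7.82 to 7.86 on the P4 arrays, above the 7.7 to 7.73 of the vehicle arrays. In PRKO uteri at 40 h the skeletal muscle level was 7.63 to 7.69 with P4 and 7.67 to 7.71 with vehicle. Acta1 itself differed there by 1.49, close to its wild-type change, without passing. The level of the 10 uterus probe sets, of which Hoxa11 rose, was 9.18 to 9.3 with P4 and 9.02 to 9.06 with vehicle in wild-type uteri at 40 h. Hoxa10 and Hoxa11 are in the stroma list as well, where Hoxa11 is 1 of the 4 that rose, so the lists are not separate. Gapdh 3' to 5' ratios were 1.23 to 1.3 on the wild-type P4 arrays at 40 h and 1.48 to 1.6 on the vehicle arrays. The actin ratios of the same arrays overlapped, at 1.19 to 1.35 with P4 and 1.18 to 1.5 with vehicle. With the adipose level as a term of the model the member median was 0.13, the median SE of a member grew from 0.113 to 0.189, and no member passed, while over the array 3 of 12422 probe sets did, against 191 without this term (Ndufb6 0.51, limma adjusted p = 0.566; Ndufa3 0.47, limma adjusted p = 0.602). With the log2 Gapdh ratio as a term the median was 0.12, and 4 members rose (Ndufb6, Ndufa3, Cox6c and Atp5md), while over the array the number called went from 191 to 369. The part of the stroma, smooth muscle, skeletal muscle, uterus, epithelial, endothelial and leukocyte markers in the changes was not tested.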

How the data were processed

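Uterine RNA was hybridized to 24 Affymetrix arrays, 3 in each of 8 groups. The table deposited by the authors holds linear signal intensity from MAS5, per the submitters' processing notes, with no version or settings in the sources used here. Array medians as deposited were 323.2 to 342.6. Precision is limited by 3 arrays in a group. Of 12488 probe sets, 66 controls were left out. Arrays were brought to a common mean of 500 after trimming 2% (scale factors 0.954 to 1.03), and log2 was taken after adding 32; changes are on that scale, which understates those of dim genes. Group means were fitted with limma 3.58.1 (R 4.3.3) with an intensity trend, with Benjamini-Hochberg adjustment over 12422 probe sets in each of 11 comparisons, at an adjusted p of 0.05; the fit had 16 residual degrees of freedom. The shared spread pools 4 h arrays, which vary more, with 40 h arrays. Other gene lists and cell type markers were written out as fixed symbols.

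Named members were those that passed, and the highest and lowest of each complex for P4 in wild-type uteri. Complex II, Cycs, the tissue forms and the c subunit genes were named as well. Others were named after their values were seen, as was the grouping by role. Members and lists were chosen with earlier results of these data known. Same-numbered arrays deviated together (every pair above 0.1: 0.114 to 0.516) only in the wild-type 4 h comparison, where a replicate block changed no call of a member. The script was tested on simulated data.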

Additional observations from a re-analysis of the deposited data

How the results depend on the processing

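The direction of the member median in wild-type uteri at 40 h held in every setting tried. The count of members that rose there was 2 and became 1 with no scaling of the arrays, 6 with only arrays of the same time (Ndufa3, Ndufb2, Ndufb6, Cox6a1, Cox7b and Atp5md), 4 with a replicate block (Ndufa3, Ndufb2, Ndufb6 and Cox6c), 0 with the adipose level as a covariate and 4 with the log2 Gapdh ratio as a covariate. Both covariates were chosen after seeing the data. Over all probe sets the number that rose in the same fits was 89, and 81, 211, 170, 3 and 177 in that order of settings. Leaving out 1 array at a time gave 0 to 3 members that rose: 0 without vehicle replicate 2, 3 without vehicle replicate 1, where Cox6c was added, and 1 without each of the other 4. Over all probe sets, 42 rose without vehicle replicate 2, 87 without vehicle replicate 1 and 49 to 61 without each of the other 4. Between 40 h and 4 h in wild-type vehicle uteri the replicate block gave 1 member that rose (Ndufa12) and 4 that fell (Ndufa5, Ndufb3, Uqcrb and Cycs) in place of 0, and leaving out both arrays with a Gapdh ratio above 3 gave 2 that fell (Atp5j2 and Cycs). Over all probe sets, 17 rose and 19 fell there, 163 and 172 with the block, and 124 and 63 without those arrays. Without 1 array at a time 0 to 2 fell there, 0 to 1 fell for P4 in wild-type uteri at 4 h, and 0 to 1 rose in the difference between times. The 2 fell without vehicle replicate 2 of 4 h, where 60 probe sets of the whole array rose and 50 fell. For P4 at 4 h and the difference between times, calls over all probe sets were not counted in these fits. Leaving out 1 array moved the median of P4 in PRKO uteri at 4 h from -0.073 to 0.004 and that of the genotype difference at 4 h from -0.041 to 0.038; both straddle 0. The cause of these changes was not tested. The block changed no other call of a member. Dim probe sets, 42 of the 99 below a signal of 500, limit what could be detected. So does the size of the changes. In the simulated data, over probe sets of any brightness, 23.2% of log2 changes of 0.3 and 64.8% of those of 0.5 were called. Each simulated probe set had the same spread in all groups, and changes up to 2 were planted. These rates need not hold for the measured arrays.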
